A study of Solanum lycopersicum with 31 samples.

Results

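Tomato leaves grown beneath an organic solar cell filter of the blend PTB7-Th:IEICO-4F (PI) were compared between a height-controlled experiment (PI_HC) and an experiment in which the photosynthetic photon flux was controlled (PI_PC). The comparison takes the 3 libraries titled HC1, HC3 and HC4 and the 4 libraries titled PC1 to PC4, 7 of the 31 libraries of the series, chosen by their titles. All plants were wildtype Solanum lycopersicum of the cultivar Moneymaker, kept in a growth chamber lit by ceramic metal halide and incandescent bulbs. The series has 8 groups: this filter, 2 other organic solar cell filters (FI and FP) and a control filter without spectral selectivity (C), each in both experiments, and each library is labelled as leaf of an individual plant. Both compared groups thus share the cultivar, the genotype, the bulbs and the filter blend, and they differ in the intensity experiment. The labels give no flux, height, temperature or date, so light intensity, distance and anything else that differed between the experiments cannot be told apart.

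Poly(A) RNA was sequenced, with the 31 libraries pooled together. The 7 libraries held 13671052 to 15094631 counts in genes and 18180 to 19335 genes with a count, so that a level of 3 counts corresponds to 0.199 to 0.219 CPM, counts scaled to a common library total. Levels below are CPM with trimmed mean (TMM) scaling. In leaf tissue as a whole, fewer cells of a type and less RNA per cell cannot be told apart. The labelled tissue was checked on marker lists: 18 of 19 mesophyll genes had a mean of at least 1 CPM, 0 of 7 endodermis genes did, and the 1 fruit ripening gene had 0 counts in the 7 libraries. The pollen and anther list did not go this way, as 12 of its 27 genes had a mean of at least 1 CPM. The identifier of the library labelled PI_PC 4 carries the block code of a different group, as do those labelled C_PC 4 and FP_PC 4. The number of genes called is given with and without it, as are part of the list and single-gene results. PI_PC was also the less uniform group. The median SD of log2 CPM over genes was 0.34 in PI_PC (n = 4) and 0.22 in PI_HC (n = 3). Profiles centred on each gene's mean over libraries had a Pearson r across genes of 0.748 between PI_PC 2 and PI_PC 3, and of -0.363 between PI_PC 2 and the library labelled PI_PC 4. The library labelled C_PC 4, a control library with a conflicting code that enters the interaction below, had an r of 0.718 with PI_PC 2 and of 0.707 with PI_PC 3. Genes within a library are not independent replicates.

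Heat shock proteins are chaperones. Small heat shock proteins hold unfolding proteins in solution, and HSP70, HSP90, ClpB and the chaperonins refold or disaggregate them. In plants their genes are under the control of heat stress transcription factors, and many of them are nearly silent in unstressed leaves. Light-harvesting chlorophyll-binding proteins carry the antenna pigments of the photosystems, and phytochromes read the balance of red and far-red light.

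In the height-controlled experiment the leaves held less RNA of 12 of 25 tested genes of the small heat shock list, of 13 of 41 tested large chaperones and of the chalcone synthases CHS1 and CHS2. They held more RNA of the flowering repressor SP5G and of the sulfate transporter LOC101264062, whose mean was lowest in PI_PC of all 8 groups. By a small log2 difference they also held more RNA of the phytochrome PHYB1. Of 16198 genes tested, 557 passed a Benjamini-Hochberg adjusted p of 0.05 in edgeR's quasi-likelihood test, which is 3.44% of the tested genes. Of these, 312 (1.93%) were higher and 245 (1.51%) lower in PI_HC. Differences are given as log2 of PI_HC over PI_PC. The absolute difference reached 1 in 257 of the 557 genes, and the median over all genes tested was -0.02. The 3 and the 4 libraries did not overlap in 509 of the 557 genes, against 13.4% of all genes tested. A small p for this difference favours genes without overlap, so this count is no separate support for the calls.

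The number of genes depended on the libraries in the fit. That fit takes 1 spread per gene from all 31 libraries. With the 7 libraries alone, edgeR called 0 genes (1962 had an unadjusted p under 0.05), limma with voom quality weights called 117, and edgeR without the library labelled PI_PC 4 called 28 (0.188%). Within the fit of all groups, 1024 genes (6.33%) passed without the library labelled PI_PC 4, 525 higher (3.25%) and 499 lower (3.09%). When all 3 libraries with conflicting codes were left out, 2497 genes (15.5%) passed. Leaving out PI_PC 2 and PI_PC 3 together gave 242 genes (1.48%), of which 127 (0.775%) were lower. Leaving out PI_HC 4 gave 37 genes (0.225%), 21 higher and 16 lower (0.0973%), and leaving out PI_PC 3 gave 132. Without PI_HC 1, PI_HC 3 or PI_PC 2 the counts were 313, 370 and 459, and without PI_PC 1 the count was 927. A group of 29 genes (0.179% of those tested), 16 higher and 13 lower, passed in the fit of all libraries and in each of the 9 fits that left libraries out of it.

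**Figure D1:**
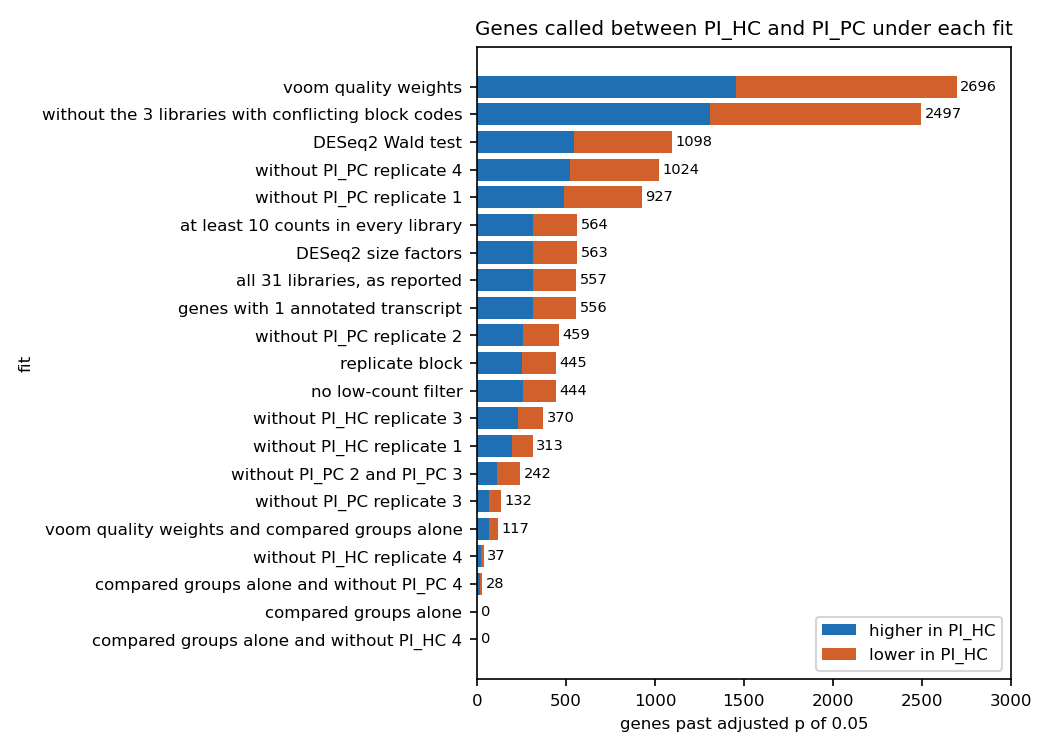
Number of genes past an adjusted p of 0.05 between PI_HC and PI_PC under each fit (horizontal axis: genes; blue: higher in PI_HC; orange: lower). The count was 557 with all 31 libraries, 37 without PI_HC 4, 1024 without the library labelled PI_PC 4 and 0 with the 7 libraries alone in edgeR.

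Small heat shock proteins were lower in the height-controlled leaves. Of 28 listed genes, 25 were tested, 12 fell and 0 rose, where 1.51% of all genes tested fell. The median log2 difference of the 25 was -1.78, and all 25 values lay below 0. Of the 3 genes not tested, 1 had 0 counts in the 7 libraries. The list was matched by gene descriptions, and 1 of the 12 genes that fell, LOC101256232, encodes an activator of the HSP90 ATPase and no small heat shock protein. Without the library labelled PI_PC 4, 13 fell. Without PI_PC 2 and PI_PC 3, 10 fell, without PI_HC 4, 7 fell, and with the 7 libraries alone 0 passed in edgeR.

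LOC101254946, a class IV small heat shock protein on chromosome 1 (SL3.0, 91487740 to 91488588, plus strand), had 10.8, 12 and 8.61 CPM in PI_HC 1, 3 and 4. In PI_PC 1 to 4 it had 51.8, 79.5, 235 and 148 CPM. The lowest PI_PC library was thus above each PI_HC library, and the highest was PI_PC 3. The log2 difference was -3.62 ± 0.58 (SE), with an edgeR adjusted p of 0.00223. Without the library labelled PI_PC 4 it was -3.54, with an edgeR adjusted p of 0.00478, and with the 7 libraries alone the edgeR adjusted p was 0.0863. A further class IV gene, LOC101256272 on chromosome 3, had 0.406, 0.729 and 0.359 CPM in PI_HC and 3.89, 5.26, 29.1 and 15.7 CPM in PI_PC. Its PI_HC level was a few counts per library, and its log2 difference of -4.73 ± 0.83 (SE, edgeR adjusted p 0.00308) rests on them.

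The cytosolic class II proteins showed the same order of groups. LOC544282, Le-HSP17.6 on chromosome 8, had 9.80, 11.1 and 6.89 CPM in PI_HC and 42.5, 73.5, 164 and 140 CPM in PI_PC. HSP17.4, also on chromosome 8, had 5.14, 2.98 and 2.66 CPM in PI_HC and 12.8, 30.3, 43.3 and 39.0 CPM in PI_PC. For both genes PI_PC 1 was the lowest of its group and still above PI_HC. The log2 differences were -3.50 ± 0.60 and -3.12 ± 0.50 (SE), with edgeR adjusted p of 0.00263 and 0.0022. MTSHP, the mitochondrial small heat shock protein, had 8.52, 8.48 and 5.10 CPM in PI_HC and 30.1, 50.2, 85.3 and 90.5 CPM in PI_PC, a log2 difference of -3.12 ± 0.52 (SE, edgeR adjusted p 0.00263).

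Of 13 listed class I proteins, which act in the cytosol, 10 were tested and 5 fell, and the median log2 difference of the 10 was -1.79. LOC101268307 had 51.0, 69.8 and 36.0 CPM in PI_HC and 142, 135, 408 and 255 CPM in PI_PC (log2 difference -2.17 ± 0.38 SE, edgeR adjusted p 0.00308). LOC543848 had 11.7, 12.3 and 9.05 CPM in PI_HC and 23.6, 35.2, 81.9 and 35.1 CPM in PI_PC, with a log2 difference of -2.0. LOC101268020 had a log2 difference of -1.78, Hsp20.0 of -1.54 and HSP17.8 of -1.18, and in all 5 of these class I genes PI_PC 3 was the highest library. The size of the class I and class IV differences was not compared by a test. The endoplasmic reticulum protein er-sHSP, which also fell, had at most 0.265 CPM in PI_HC, where PI_HC 4 had 0, and 0.603 to 3.04 CPM in PI_PC, so no fold is given for it.

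Members that did not pass included LOC101263239, a class I gene that made up most of the summed level of the list. It had 1484, 1713 and 1619 CPM in PI_HC and 2144, 2017, 2286 and 1452 CPM in PI_PC, so that the groups overlapped through the library labelled PI_PC 4 (log2 difference -0.30, edgeR adjusted p 0.394). The class III gene LOC101248279 had 4.26, 5.50 and 3.16 CPM in PI_HC and 9.92, 6.93, 12 and 35.6 CPM in PI_PC, where the library labelled PI_PC 4 was the highest (edgeR adjusted p 0.064). The class V gene LOC101256444 had an edgeR adjusted p of 0.996. The summed level of the 28 genes was 1925, 2203 and 1955 CPM in PI_HC and 2920, 3013, 4140 and 2787 CPM in PI_PC. The remaining 24 libraries of the series, other filters included, lay between 1595 and 2778 CPM, and the highest of them was the library labelled C_PC 4.

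**Figure D2:**
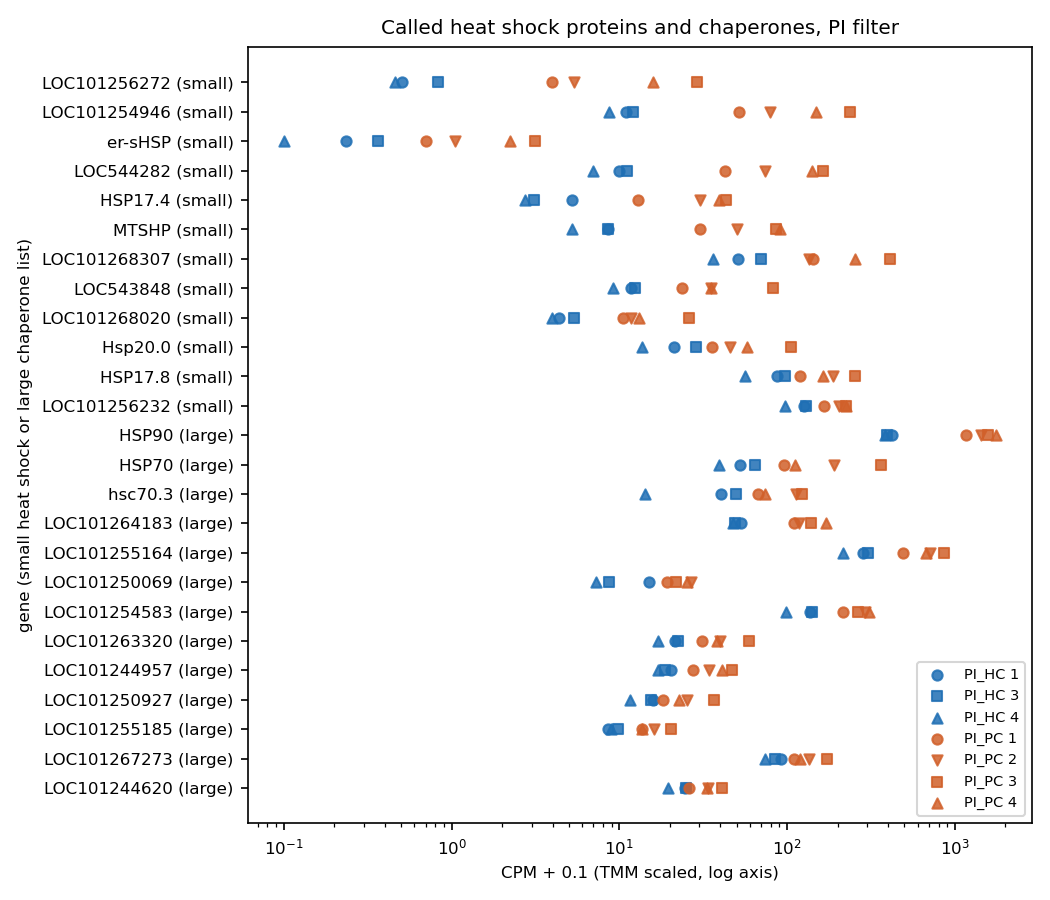
Levels of the 12 genes of the small heat shock list and the 13 large chaperones that were lower in PI_HC (horizontal axis: CPM + 0.1 on a log scale; each symbol is 1 library; blue: PI_HC; orange: PI_PC). In each of the 25 genes the 3 blue symbols lie to the left of the 4 orange ones, which the choice of genes with a small p in these libraries favours.

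Part of the large chaperones fell in the height-controlled leaves as well. Of 45 listed genes, 41 were tested, and 13 fell and 0 rose, against 1.51% of all genes tested. The median log2 difference of the 41 was -0.46, with 30 values below 0 and 11 above. The summed level of the 45 genes was 13779, 14388 and 12615 CPM in PI_HC and 14173, 16756, 18524 and 14537 CPM in PI_PC, so the groups overlapped. Without the library labelled PI_PC 4, 17 fell. Without PI_PC 2 and PI_PC 3 the number was 3, without PI_HC 4 it was 1, without PI_PC 3 it was 6, without PI_HC 1 it was 8, and with the 7 libraries alone it was 0. HSP90, the chaperone of kinases and signalling proteins, on chromosome 6 (25893824 to 25897169, plus strand), was the 1 member called in each of those fits except that of the 7 libraries alone. It had 421, 396 and 382 CPM in PI_HC and 1168, 1428, 1580 and 1767 CPM in PI_PC. The highest PI_HC library was far below the lowest PI_PC library, and the log2 difference was -1.89 ± 0.32 (SE, edgeR adjusted p 0.00263), a mean 3.72 times higher in PI_PC.

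LOC101264183, a member of the HSP90 family, had 52.8, 48.6 and 47.5 CPM in PI_HC and 109, 118, 138 and 170 CPM in PI_PC (log2 difference -1.43 ± 0.28 SE, edgeR adjusted p 0.00684). The heat shock cognate LOC101255164, an HSP70, had 284, 303 and 216 CPM in PI_HC and 492, 707, 861 and 668 CPM in PI_PC. HSP70 itself had 52.5, 64.4 and 39.0 CPM in PI_HC and 95.4, 190, 363 and 112 CPM in PI_PC. Its log2 difference was -1.87 and -1.0 without PI_PC 2 and PI_PC 3, the 2 highest libraries, where the edgeR adjusted p was 0.226. Among mitochondrial chaperones, the chaperonin LOC101263320 had a log2 difference of -1.05 and the HSP70 LOC101267273 of -0.68. The disaggregase ClpB1, LOC101254583, had a log2 difference of -1.10 (edgeR adjusted p 0.0274).

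Of 29 heat stress transcription factors, 19 were tested and 1 fell, against 1.51% of all genes tested. HSTF24 had 51.5, 66.4 and 51.9 CPM in PI_HC and 83.5, 130, 126 and 68.8 CPM in PI_PC. PI_PC 2 and PI_PC 3 were the highest libraries and the groups did not overlap (log2 difference -0.85, edgeR adjusted p 0.0352, and -0.43 with an edgeR adjusted p of 0.388 without these libraries). An A-2-like factor, LOC101266046, had 16.6, 18.6 and 15.4 CPM in PI_HC and 13.5, 16.4, 7.36 and 4.91 CPM in PI_PC, and it did not pass (edgeR adjusted p 0.0876). The median log2 difference of the 19 factors was -0.03.

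**Figure D3:**
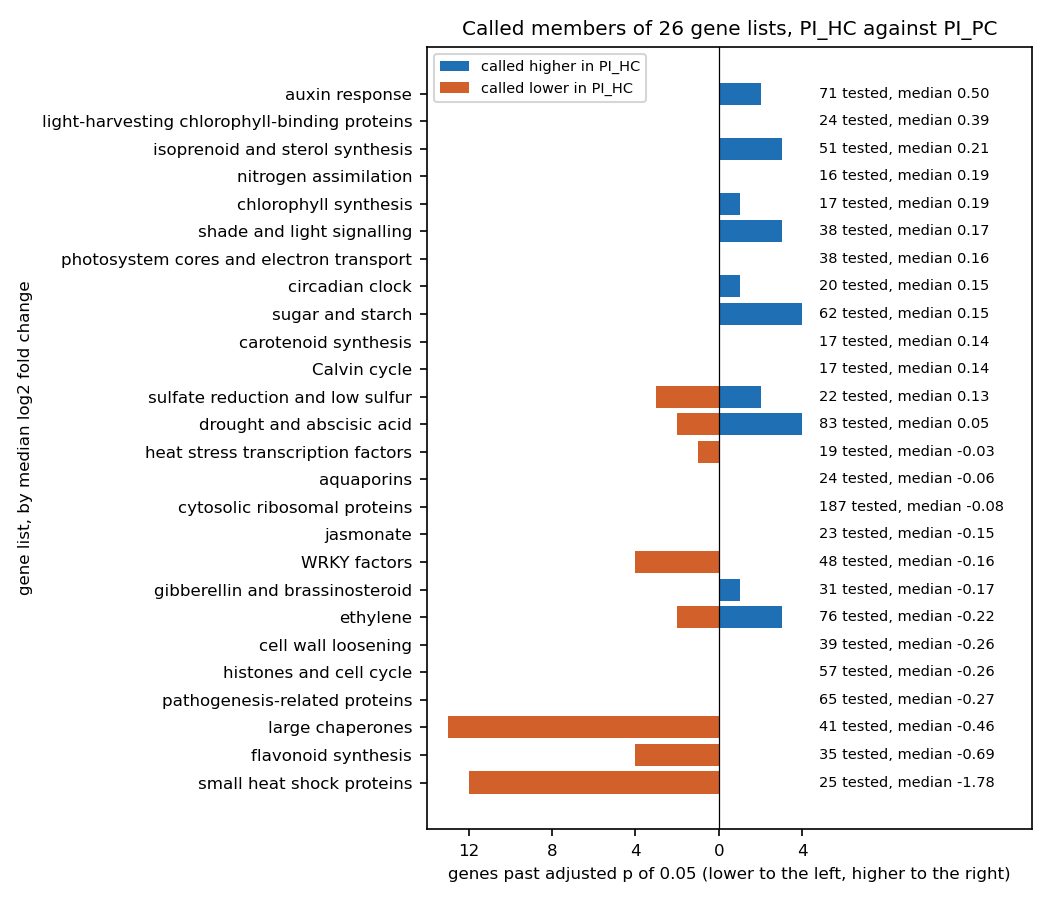
Members of 26 gene lists past an adjusted p of 0.05 between PI_HC and PI_PC (bars to the left: lower in PI_HC; bars to the right: higher), with the number tested and their median log2 difference at the right. The small heat shock and large chaperone lists have 12 and 13 genes to the left, and the light-harvesting list has none on either side.

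Flavonoid synthesis was a further list with a low median, below that of the large chaperones. Of 56 genes, 35 were tested, 4 fell and 0 rose, where 1.51% of all genes tested fell, and the median log2 difference was -0.69. CHS1, a chalcone synthase at the entry of the pathway, had 131, 101 and 59.3 CPM in PI_HC and 529, 260, 221 and 284 CPM in PI_PC. PI_PC 1 was the highest library here, unlike in the heat shock genes, and the log2 difference was -1.74 ± 0.40 (SE, edgeR adjusted p 0.0176). CHS2 had 781, 897 and 486 CPM in PI_HC and 2269, 1561, 1429 and 1132 CPM in PI_PC (log2 difference -1.15, edgeR adjusted p 0.0417). The other two genes that fell encode anthocyanidin 3-O-glucosyltransferases, LOC101244316 (log2 difference -1.23) and LOC101260093 (-0.84). Without PI_HC 4 0 genes of this list passed, and without the library labelled PI_PC 4, 9 fell.

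In the photosynthesis lists the 4 PI_PC libraries lay on both sides of PI_HC. The summed level of 24 light-harvesting genes was 54645, 53289 and 52119 CPM in PI_HC. It was 44674 CPM in PI_PC 1, 19691 and 19539 CPM in PI_PC 2 and 3, and 78989 CPM in the library labelled PI_PC 4. PI_PC 2 and 3 were thus below each PI_HC library and the library labelled PI_PC 4 was above each. Of the 24 genes 0 passed in edgeR, with a median log2 difference of 0.39. Without the library labelled PI_PC 4 the median was 1.07 and 5 rose, and without PI_PC 2 and PI_PC 3 it was -0.30 and 0 passed, so the direction depended on these libraries.

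Single antenna genes spanned wide ranges within PI_PC. CAB5 had 143, 164 and 287 CPM in PI_HC and 60.3, 14.5, 9.52 and 216 CPM in PI_PC. Cab-3C had 255, 157 and 292 CPM in PI_HC, 66.9, 4.96 and 5.90 CPM in PI_PC 1 to 3 and 779 CPM in the library labelled PI_PC 4. The photosystem core list (38 genes tested) and the Calvin cycle list (17 tested) had 0 genes past the threshold and medians of 0.16 and 0.14. Their medians without PI_PC 2 and PI_PC 3 were -0.41 and -0.39, and without the library labelled PI_PC 4 they were 0.69 and 0.54. In chlorophyll synthesis 1 of 17 tested genes rose, against 1.93% of all genes tested. This was chlorophyllide a oxygenase LOC101244441, which makes chlorophyll b. It had 419, 324 and 431 CPM in PI_HC and 296, 211, 169 and 316 CPM in PI_PC (log2 difference 0.66, edgeR adjusted p 0.0493), and 0 genes of this list passed without PI_HC 4.

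**Figure D4:**
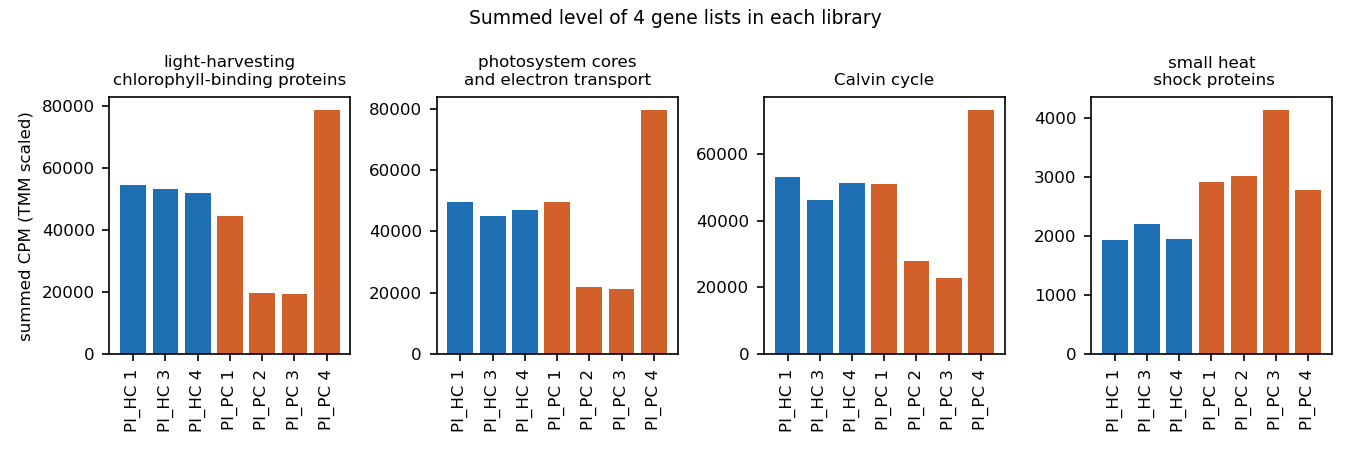
Summed level of 4 gene lists in each of the 7 libraries (vertical axes: CPM from 0; blue: PI_HC; orange: PI_PC). In the 3 photosynthesis lists PI_PC 2 and 3 are the lowest and the library labelled PI_PC 4 the highest, while in the small heat shock list all 4 PI_PC libraries are above the 3 PI_HC libraries.

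Among 38 tested genes of shade and light signalling 3 rose and 0 fell, against 1.93% of all genes tested that rose. Without PI_HC 4, 0 passed, and without the library labelled PI_PC 4, 3 rose and 3 fell. PHYB1, the phytochrome B1 photoreceptor, had 176, 171 and 209 CPM in PI_HC and 143, 116, 101 and 138 CPM in PI_PC. The groups did not overlap and the log2 difference was small, 0.57 (edgeR adjusted p 0.0253). The B-box factors LOC104649503 and LOC101264380 rose with log2 differences of 0.96 and 1.16, though LOC101264380 has 2 annotated transcripts and is thus measured poorly. HAT4 (LOC101249931), a homeodomain factor known in Arabidopsis for its rise in shade, had 80.6, 58.5 and 82.6 CPM in PI_HC and 28.3, 54.5, 10.2 and 13.8 CPM in PI_PC. The groups did not overlap, but the gene did not pass (log2 difference 1.47 ± 0.45 SE, edgeR adjusted p 0.0676). In the clock list 1 of 20 tested genes rose, against 1.93% of all genes tested, and 0 passed without PI_HC 4. This was the REVEILLE 7 gene LOC101255972, a Myb-like factor, with a log2 difference of 0.67.

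SP5G, a relative of the florigen that represses flowering in tomato, on chromosome 5 (64738354 to 64740327, plus strand), had 67.3, 91.1 and 90.1 CPM in PI_HC. In PI_PC it had 48.8, 29.2, 23.0 and 38.1 CPM, and PI_PC 1 came nearest to PI_HC. The log2 difference was 1.25 ± 0.19 (SE, edgeR adjusted p 0.00183), with 1.30 without the library labelled PI_PC 4 and an edgeR adjusted p of 0.129 with the 7 libraries alone.

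Sulfate genes moved both ways, with 2 of 22 tested genes higher and 3 lower, against 1.93% and 1.51% of all genes tested. Without PI_HC 4, 1 rose and 1 fell, and without PI_PC 2 and PI_PC 3, 2 rose and 0 fell. The sulfate transporter LOC101264062 had 57.5, 59.4 and 78.2 CPM in PI_HC and 22.9, 26.2, 22.2 and 30.9 CPM in PI_PC (log2 difference 1.35 ± 0.23 SE, edgeR adjusted p 0.00263). Its mean was 65.0 CPM in PI_HC and 25.6 CPM in PI_PC. The means of the control, FI and FP groups lay between 56.5 CPM (C_HC) and 65.4 CPM (FP_PC), so PI_PC was the group that stood apart. Adenylylsulfate reductase, which commits sulfate to reduction, went the other way. LOC101257319 had 19.9, 18.6 and 19.5 CPM in PI_HC and 35.3, 54.1, 62.0 and 50.7 CPM in PI_PC (log2 difference -1.39, edgeR adjusted p 0.0087). A second reductase gene, LOC101252466, had a log2 difference of -1.40, and LOC101243970, named after a response to low sulfur, had -1.12.

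Sugar and starch genes passed in 4 of 62 cases, all higher in PI_HC, against 1.93% of all genes tested that rose. Without PI_HC 4 0 of them passed, and without PI_PC 2 and PI_PC 3, 1 did. The SWEET transporter LOC101265012 had 42.6, 32.9 and 61.5 CPM in PI_HC and 21.6, 15.6, 19.5 and 28.3 CPM in PI_PC (log2 difference 1.10, edgeR adjusted p 0.00696). LOC101255412, also a SWEET, had a log2 difference of 1.61 and LOC101261104 of 0.58. The fourth is a trehalose phosphate synthase, LOC101267327 (0.38). In auxin response, 2 of 71 tested genes rose, IAA4, a repressor of auxin-responsive genes (log2 difference 0.95), and LOC101258495, an enzyme named for auxin conjugation (0.75). These 2 genes are close to the share of all genes that rose, 1.93%, and 0 passed without PI_HC 4 or without PI_PC 2 and PI_PC 3. The median over the 71 was 0.50.

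Of 31 tested genes of the gibberellin and brassinosteroid list 1 rose and 0 fell, against 1.93% and 1.51% of all genes tested, and 0 passed without PI_HC 4. This was 20ox-1, a gibberellin 20-oxidase, which had 63.4, 54.8 and 126 CPM in PI_HC and 33.1, 33.0, 26.1 and 7.25 CPM in PI_PC (log2 difference 1.71, edgeR adjusted p 0.031). CYP90B3, a brassinosteroid synthesis enzyme outside the list's patterns, had 1.01, 1.52 and 0.718 CPM in PI_HC. It had 1.74 and 1.83 CPM in PI_PC 1 and the library labelled PI_PC 4, and 13.5 and 34.6 CPM in PI_PC 2 and 3. Its log2 difference of -3.56 (edgeR adjusted p 0.0317) was -0.71 without PI_PC 2 and PI_PC 3, where the edgeR adjusted p was 0.741. Of 76 ethylene genes tested, 3 rose and 2 fell, against 1.93% and 1.51% of all genes tested, and 0 passed without PI_HC 4. The RAP2-7-like factor LOC101252772 rose with a log2 difference of 0.93, and the oxidase homolog LOC101250295 fell with -0.84.

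WRKY factors, many of which act in defence, fell in 4 of 48 cases, against 1.51% of all genes tested. Without PI_HC 4 0 passed, and without PI_PC 2 and PI_PC 3 0 passed and the median log2 difference was 0.02. LOC101243805, a WRKY40, had 2.57, 5.77 and 1.87 CPM in PI_HC, 10.9 and 12.7 CPM in PI_PC 1 and the library labelled PI_PC 4, and 46.7 and 91.5 CPM in PI_PC 2 and 3. Its log2 difference was -3.57 (edgeR adjusted p 0.0116) and -1.79 without PI_PC 2 and PI_PC 3 (edgeR adjusted p 0.187). In 65 pathogenesis-related and 23 jasmonate genes tested, 0 passed in edgeR. The drought and abscisic acid list had 4 higher and 2 lower of 83 tested, against 1.93% and 1.51% of all genes tested. Without PI_HC 4, 1 rose and 0 fell. The receptor LOC101246907 rose with a log2 difference of 1.18, and the late embryogenesis gene LOC104645830 fell with -1.55, though its groups overlapped.

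Isoprenoid and sterol genes rose in 3 of 51 cases, against 1.93% of all genes tested, and 0 passed without PI_HC 4. The smallest p was that of the sterol reductase LOC101244831, which has 2 annotated transcripts and is thus measured poorly. It had 14.7, 15.2 and 15.8 CPM in PI_HC and 4.83, 4.78, 2.75 and 5.93 CPM in PI_PC, a log2 difference of 1.74 (edgeR adjusted p 0.0253). The lists of cytosolic ribosomal proteins (187 tested), cell wall loosening (39), histones and cell cycle (57), aquaporins (24), nitrogen assimilation (16) and carotenoid synthesis (17) each had 0 genes past the threshold in edgeR.

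The largest increase among described genes with a mean of at least 1 on the log2 CPM scale was in LOC101251470, a prolyl endopeptidase on chromosome 4 (65990349 to 65994944, plus strand). It had 252, 462 and 217 CPM in PI_HC and 44.9, 43.4, 65.2 and 25.3 CPM in PI_PC, so the groups were far apart. The log2 difference was 2.79 ± 0.48 (SE, edgeR adjusted p 0.00263). Under the control filter its mean was 326 CPM in C_HC and 138 CPM in C_PC, and the interaction did not pass (edgeR adjusted p 0.245). Of all 8 groups PI_PC had the lowest mean, 44.7 CPM, and FI_PC the highest, 697 CPM. PI_HC had 310 CPM. GIF1 (LOC101253549), a coactivator that promotes leaf growth in Arabidopsis, had 8.11, 9.68 and 6.89 CPM in PI_HC and 2.41, 1.13, 0.409 and 0.952 CPM in PI_PC (log2 difference 2.75). The next were LOC101248318, an SPX domain membrane protein (2.26), LOC101260393, a RING-H2 protein (2.21), LOC101268119, an NRT1/PTR family transporter (2.15), and LOC101244989, a monothiol glutaredoxin (2.11). Each of the 6 had groups that did not overlap, which the choice of these genes required. All 6 passed without the library labelled PI_PC 4. LOC101251470 and GIF1 also passed without PI_HC 4 and without PI_PC 2 and PI_PC 3. The other genes passed in neither of these fits. In the order above, their edgeR adjusted p were 0.0807, 0.131, 0.168 and 0.126 without PI_HC 4. Without PI_PC 2 and PI_PC 3 they were 0.231, 0.135, 0.0800 and 0.130.

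The 29 genes that passed in every fit leaving libraries out held 7 genes of the small heat shock list and HSP90 among their 13 lower genes. The remaining lower genes were LOC101256620, a dnaJ co-chaperone of the endoplasmic reticulum (log2 difference -0.94), LOC101243830, a germin-like protein (-1.35), and LOC101248930, a receptor-like kinase (-0.73), and 2 were described as uncharacterized. HKT1;2, a sodium transporter, rose from 63.0, 64.4, 36.9 and 29.6 CPM in PI_PC to 161, 121 and 149 CPM in PI_HC. LOC101268035, a LOB domain factor whose Arabidopsis relative represses nitrate-responsive genes, had 4.73, 4.64 and 6.17 CPM in PI_HC and 1.48, 1.55, 1.46 and 1.39 CPM in PI_PC. The 4 PI_PC libraries lay close together in this gene, and the log2 difference was 1.81 ± 0.33 (SE, edgeR adjusted p 0.00387).

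Other higher genes of the 29 were an NRT1/PTR family transporter, LOC101250924 (log2 difference 1.40), and a zinc transporter, LOC101252338 (1.15). A SAPK2 kinase, LOC101261086, of the family that acts in abscisic acid signalling, had 1.39. The WAT1-related LOC101261299 had 1.91 and LOC101262985, a geraniol 8-hydroxylase, had 1.22. Smaller differences were those of LOC101268788, a rop guanine nucleotide exchange factor (0.78), LOC101253179, a DETOXIFICATION family transporter (0.71), and LOC101252295, a RING protein (0.54). LOC101259539, a nodulin-related protein with 2 annotated transcripts, had 2.23, 1.52 and 3.23 CPM in PI_HC and at most 0.293 CPM in PI_PC, where the libraries held 1 to 4 counts.

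The control filter was measured in the same 2 experiments, and there 60 of 16198 genes (0.37%) passed between C_HC and C_PC. This count also depended on the fit. It was 283 without the 3 libraries with conflicting codes, 289 with the DESeq2 Wald test, 830 with voom quality weights and 45 without the low-count filter. Whether the PI difference was unlike the control difference was tested as an interaction, in which 135 genes (0.833%) passed, 70 with a more positive and 65 with a more negative PI difference. It gave 1 gene with the 4 groups alone, 5 without PI_HC 4, 1194 without the library labelled C_PC 4, and 2809 (17.4%) without the 3 libraries with conflicting codes. The smallest interaction p among described genes was that of the reductase LOC101257319, whose mean was 93.8 ± 20.1 CPM (SD, n = 4) in C_HC and 37.2 ± 12.2 CPM (SD, n = 4) in C_PC. Its log2 difference was thus 1.33 under the control filter and -1.39 under PI, and the interaction was -2.72 ± 0.38 (SE, edgeR adjusted p 0.002). Under the FI filter, where no contrast was fitted, LOC101257319 had 49.3 ± 14.4 CPM (SD, n = 4) in FI_HC and 169 ± 58.6 CPM (SD, n = 4) in FI_PC. The FI groups did not overlap and had the order of PI_HC and PI_PC. FP_HC had 35.3 ± 7.90 CPM and FP_PC 22.8 ± 6.17 CPM (SD, n = 4 each), with overlap and in the order of the control groups. LOC101252466 had an interaction of -2.49 (edgeR adjusted p 0.00633).

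SP5G had an interaction of 1.64 (edgeR adjusted p 0.00633). It stood at 35.3 ± 7.31 CPM (SD, n = 4) in C_HC and 46.3 ± 5.57 CPM (SD, n = 4) in C_PC, with 34.8 ± 11.2 CPM (SD, n = 4) in PI_PC, while PI_HC had 82.9 ± 13.4 CPM (SD, n = 3). FP_HC and FP_PC, with 70.1 ± 8.03 and 71.4 ± 11.2 CPM (SD, n = 4 each), came nearest to PI_HC. FI_HC had 51.1 ± 3.33 CPM (SD, n = 4) and FI_PC 23.2 ± 4.47 CPM (SD, n = 4), without overlap and in the same order as PI_HC and PI_PC. HSP90 had an interaction of -1.73 (edgeR adjusted p 0.0427). It had 807 ± 344 CPM (SD, n = 4) in C_HC and 904 ± 100.4 CPM (SD, n = 4) in C_PC, between PI_HC at 400 ± 19.5 CPM (SD, n = 3) and PI_PC at 1486 ± 253 CPM (SD, n = 4). FI_PC, at 1524 ± 695 CPM (SD, n = 4), had a mean as high as PI_PC, and FI_HC had 933 ± 354 CPM (SD, n = 4). The libraries of FI_HC and FI_PC overlapped. So did those of FP_HC, at 639 ± 89.9 CPM, and FP_PC, at 634 ± 137 CPM (SD, n = 4 each). Of the small heat shock genes called in each fit that left libraries out of the 31, LOC101254946 and LOC101268020 passed the interaction, and LOC544282 (edgeR adjusted p 0.109), HSP17.4 (edgeR adjusted p 0.0865), MTSHP (edgeR adjusted p 0.101), LOC543848 (edgeR adjusted p 0.105) and LOC101256272 (edgeR adjusted p 0.118) did not. For CHS1 the difference from the control was not past the threshold either (edgeR adjusted p 0.235). Without the 3 libraries with conflicting codes, where 17.4% of all genes tested passed the interaction, LOC544282, HSP17.4 and LOC101256272 passed it. Their edgeR adjusted p were then 0.0231, 0.00712 and 0.00365, and that of CHS1 was 0.0619.

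**Figure D5:**
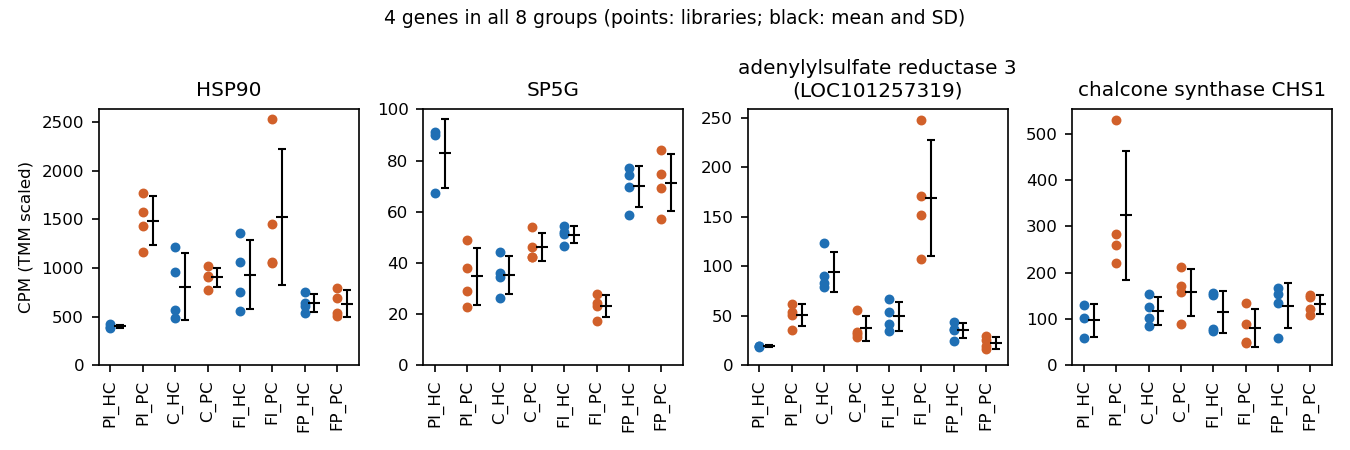
Levels of HSP90, SP5G, adenylylsulfate reductase 3 (LOC101257319) and CHS1 in the 8 groups (vertical axes: CPM from 0; points: libraries; black: mean and SD; blue: height controlled; orange: photon flux controlled). PI_HC has the lowest HSP90 points, at 382 to 421 CPM, and PI_PC the highest CHS1 points, at 221 to 529 CPM.

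Markers of other cell types were compared as well. The summed levels of the trichome, phloem and guard cell lists overlapped between the groups. That of the pollen and anther list did not, with 910 to 969 CPM in PI_HC and 995 to 1111 CPM in PI_PC. Of its 12 tested genes 0 passed. The summed level of 37 glandular trichome genes was 239, 244 and 337 CPM in PI_HC and 213, 133, 121 and 247 CPM in PI_PC. Of 12 tested genes 1 fell, against 1.51% of all genes tested. This was the acylsugar acyltransferase LOC101249522, with at most 0.265 CPM in PI_HC and 0.439 to 1.87 CPM in PI_PC. It moved against the summed level, whose mean was 273 CPM in PI_HC and 179 CPM in PI_PC. The 6 phloem genes summed to 225, 280 and 321 CPM in PI_HC and 446, 244, 287 and 473 CPM in PI_PC, and 0 of 5 tested genes passed. The 5 guard cell genes summed to 50.3, 34.4 and 50.5 CPM in PI_HC and 37.5, 28.0, 24.1 and 30.8 CPM in PI_PC. Of the 2 tested guard cell genes 1 rose, the anion channel SLAC1 LOC101256903 (log2 difference 0.65, edgeR adjusted p 0.0347), against 1.93% of all genes tested, and its groups overlapped. The other tested guard cell gene had a log2 difference below 0 and did not pass. Without PI_HC 4 none of these lists had a gene past the threshold. The part of these markers in the differences above was not tested.

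PI_PC 2 and PI_PC 3 lay farther from PI_HC than both other PI_PC libraries in 122 of the 312 genes that were higher in PI_HC (39.1%) and in 116 of the 245 that were lower (47.3%). Over all tested genes of the same sign these shares were 40.1% and 42.5%. PI_PC 1 and the library labelled PI_PC 4 were the farther ones in 6.09% and 7.35% of the called genes, against 20.3% and 21.8% of all tested genes. Of the genes called without the library labelled PI_PC 4 and those called without PI_PC 2 and PI_PC 3, 112 were in both sets, 10.9% of the first and 46.3% of the second.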

How the data were processed

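Per the file headers, the authors made the deposited raw counts with featureCounts 2.0.1 (read pairs, reverse strand) against a RefSeq annotation of tomato build SL3.0, with each exon record as a feature of its own. HISAT2, FastQC and DESeq2 are named in the submitters' processing notes, without versions. Fragments that overlap several records were counted for none: the 7267 genes with 2 or more transcripts (23.9% of 30397) hold 1.38% of the counts, so these genes are measured poorly. Exon records were summed per gene. The 10 records without a gene name hold 0.0112% to 0.379% of a library and were left out.

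Libraries were grouped by their titles. The main test was edgeR 4.0.16 in R 4.3.3 (quasi-likelihood, TMM, filterByExpr, 31 libraries, 1 mean per group), adjusted over all 16198 genes at 0.05. Standard errors are the log2 difference divided by the square root of F. The groups' 3 and 4 libraries allow an exact two-sided permutation p of 0.0571 at the smallest, so no such test was run. The main p-values rest on 1 spread per gene taken over the plants of all groups, not on the spread of the 7 compared plants alone. They do not measure how a repeat of either experiment would vary. Floors cover counting error only. On simulated counts of 16019 genes for this contrast, with 200 changed 4-fold, the fit of all 31 libraries recovered 96% with 9 false calls of 201. The fit of the 7 alone recovered 94.5% of 200 on 15014 genes, with 11 false calls. The simulated libraries shared 1 mean profile and 1 spread per gene, and only well-counted genes were changed. The unequal spreads of PI_PC and PI_HC were not simulated, so these rates do not carry over to the genes called in the real libraries. Alternatives used DESeq2 1.42.0, limma 3.58.1, other filters and left-out libraries.

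The 26 pathway and 8 marker lists were matched to gene descriptions in the files, by patterns. Members and lists were chosen with earlier results of these data known. The genes named are the 6 largest changes each way among called, described genes whose mean log2 CPM reached 1 and whose libraries did not overlap, the called member of each list with the smallest p in each direction, the 3 smallest interaction p-values, and the genes called in every fit that left libraries out. Other list members named were chosen after their values were seen. No sequence was used here.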

Additional observations from a re-analysis of the deposited data

Results flagged for a closer look

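In groups of 4 libraries the gap of the most distant library was compared with Dixon's critical value, which chance passes in about 1 of 20 groups, and 5 of 84 gaps passed. LOC101252772 stood at 24.3 CPM in PI_PC 2, above the other 3 PI_PC libraries. LOC101259539 stood at 0.293 CPM in the library labelled PI_PC 4. LOC101261086 was lowest in PI_PC 3, at 5.43 CPM, where LOC101268020 was highest, at 26 CPM. The summed level of the small heat shock list was also highest in PI_PC 3, at 4140 CPM.

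The PI difference between the experiments was unlike the control difference in 135 genes by the interaction test in edgeR. Among named genes with a more positive PI difference, the log2 interaction was 5.48 for LOC101259539, whose PI_PC libraries held 1 to 4 counts, 2.79 for LOC101268119, 1.74 for LOC101261086, 1.64 for SP5G, 1.37 for LOC101264062, 1.34 for LOC101250924, 0.99 for LOC101268788 and 0.88 for LOC101253179. Among those with a more negative PI difference it was -2.98 for LOC101254946, -2.72 for LOC101257319, -2.49 for LOC101252466, -1.73 for HSP90, -1.63 for LOC101268020, -1.04 for LOC101243830 and -0.88 for LOC101256620.

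Records without a gene name, which enter no comparison, held 0.379% of the counts in PI_HC 4, against 0.0169% to 0.037% in the control libraries.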

How the results depend on the processing

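The number of genes called between PI_HC and PI_PC was 557 and stayed within 1.5 times of it with DESeq2 size factors, at least 10 counts in every library, no low-count filter, genes with 1 annotated transcript and the replicate block. It was 1098 with the DESeq2 Wald test, 2696 with voom quality weights, 257 at an absolute log2 difference of at least 1, 242 without PI_PC 2 and PI_PC 3, and 2497 without the 3 libraries with conflicting codes. With the 7 libraries alone it was 0 in edgeR (1962 at an unadjusted p under 0.05), 28 when the library labelled PI_PC 4 was also left out, 0 when PI_HC 4 was also left out (1105 at an unadjusted p under 0.05; an alternative added after the data were seen), and 117 with voom weights. Leaving out 1 library at a time gave 37 to 1024.

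The interaction count of 135 was 414 with the DESeq2 Wald test, 80 without the low-count filter, 86 at an absolute log2 difference of at least 1, 29 without PI_PC 2 and PI_PC 3, 2809 without the 3 libraries, and 1 with the 4 groups alone, with or without the library labelled PI_PC 4. Leaving out 1 library at a time gave 5 to 1194.

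Of the small heat shock list 12 genes fell. With the 7 libraries alone the number was 0, also without PI_HC 4, 1 without the library labelled PI_PC 4, and 4 with voom weights, and leaving out 1 library gave 7 to 15. Of the large chaperones 13 fell. With the 7 libraries alone the number was 0, also without PI_HC 4, 2 without the library labelled PI_PC 4 and 5 with voom weights. It was 3 without PI_PC 2 and PI_PC 3 and 8 at an absolute log2 difference of at least 1, and leaving out 1 library gave 1 to 19. The cause of these differences was not tested.

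Whether replicate numbers pair the libraries cannot be decided from 3 same-numbered pairs, among them that of the library labelled PI_PC 4. Deviations of these pairs had correlations of -0.02 to 0.112 (mean 0.0427), against -0.116 to 0.0832 (mean -0.0145) for other pairs. The highest was that of PI_HC 3 with PI_PC 3, and not every library correlated best with its own number. With the replicate block 445 genes were called, and the interaction count was 76. Of 47 named genes 43 passed with the block and 47 without the library labelled PI_PC 4. Without PI_HC 4 the number was 27, and without PI_PC 2 and PI_PC 3 it was 30. None of the 47 changed direction in any alternative in which it was tested, and each lost its call with the 7 libraries alone in edgeR. With no genome given, promoter motifs were not examined. Genes under about 3 counts per library cannot be resolved at this depth, and those with several transcripts are limited by the counting of fragments that overlap several records.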

Other observations

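Some gene groups outside the 26 lists were gathered by description after the values had been seen, so their counts carry no test. Of 55 tested NRT1/PTR family transporters, which carry nitrate and other small molecules, 5 rose in PI_HC and 0 fell (edgeR adjusted p under 0.05), where 1.93% of all genes tested rose, with a median log2 difference of 0.22. Without PI_HC 4, and also without PI_PC 2 and PI_PC 3, 1 rose. LOC101253972 had 308, 236 and 441 CPM in PI_HC and 193, 182, 127 and 190 CPM in PI_PC. Of 12 tested monothiol glutaredoxins 3 rose and 0 fell, against 1.93% of all genes tested that rose. The median was 0.27, with 6 values above 0 and 6 below, and 0 passed without PI_HC 4. LOC101267713 had 22.7, 29.9 and 31.9 CPM in PI_HC and 8.65, 10.9, 3.45 and 6.74 CPM in PI_PC. The libraries of the groups did not overlap in either gene. Of 11 tested LOB domain genes 2 rose, against 1.93% of all genes tested, and without PI_HC 4 1 did. LOC101259032 had 82.8, 81.9 and 98.7 CPM in PI_HC and 45.0, 47.4, 38.8 and 26 CPM in PI_PC.

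Of 48 tested dnaJ co-chaperones, which deliver clients to HSP70, 6 fell and 1 rose, where 1.51% and 1.93% of all genes tested did, and without PI_HC 4 1 fell and 0 rose. LOC101259708 had 37.9, 32.0 and 24 CPM in PI_HC and 64.2, 74.1, 78.1 and 83.1 CPM in PI_PC. The gene that rose was LOC101257564, a chloroplast dnaJ protein, with 82.9, 89.5 and 111 CPM in PI_HC and 45.7, 60.8, 46.7 and 41.2 CPM in PI_PC. Of 56 tested calmodulin-like and related calcium-binding genes 4 fell and 1 rose, where 1.51% and 1.93% of all genes tested did. Without PI_HC 4, 0 passed. LOC101249625 had 15.1, 18.1 and 13.1 CPM in PI_HC and 28.8, 55.7, 101 and 35.8 CPM in PI_PC, with PI_PC 3 the highest.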
